A study of Mus musculus with 6 samples.

Results

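The Egr, Nab and Ier immediate early genes are 9 genes of the mouse (Egr1, Egr2, Egr3, Nab1, Nab2, Ier2, Ier3, Ier5 and Btg2), taken by symbol from the 55401 genes of the deposited count table. All 9 were found and all 9 passed the filter on low counts, among 18277 genes tested. RNA had been sequenced from F4/80+ cells of mouse liver tumours, where F4/80 is the surface protein used to isolate macrophages. In 3 libraries the tumours came from Hepa 1-6 cells, a mouse hepatoma line, made to overexpress Sms with a lentivirus (Sms-OE), and in 3 from control cells whose genotype the labels give as WT Control. Sms encodes spermine synthase, which makes the polyamine spermine. In both groups the cells were injected into the right lobe of the liver, no further treatment was given, and tumours were collected on day 14. The labels give no age, sex or strain of the mice and no vector for the control cells. They do not state whether libraries came from separate mice, and the p-values therefore describe the spread among these 6 libraries, which may be technical. Sms was introduced into the injected hepatoma cells, while the RNA is that of the isolated F4/80+ cells. The libraries held 49833764 to 51123047 counts in Sms-OE and 51583985 to 58154006 counts in the controls, of which the 9 genes took 0.506% to 0.550% in Sms-OE and 0.405% to 0.459% in the controls.

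Immediate early genes are transcribed within minutes of a signal, without new protein synthesis, and in many of them ERK kinases act through the transcription factor SRF and its ETS partners. Egr1, Egr2 and Egr3 are zinc finger transcription factors that bind the same GC-rich site. Nab1 and Nab2 are co-repressors that bind Egr proteins and limit their activity, and in myeloid precursors Egr and Nab proteins take part in the choice of the macrophage fate. The Ier proteins are small products of immediate early genes, and Btg2 is an antiproliferative adaptor of the deadenylase that shortens poly(A) tails.

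The promoters of Nab1, Egr2, Btg2 and Nab2 are shown because the results below set Nab1 against Nab2 and Egr2 against its relatives, and because 3 of these promoters hold a motif of signal-dependent or Egr-bound promoters. RefSeq promoter windows (GRCm38.p6, 250 bases before to 50 after an annotated transcript start) were matched by symbol for 6 of the 9 genes. The starts of the Nab1, Egr2 and Nab2 windows printed lie 231, 2394 and 1865 bases inside the GENCODE gene, counted from its 5′ end. These windows thus belong to internal starts. Windows for Egr1, Egr3 and Ier2 were not used here. Capitals mark the motifs searched on both strands: the CArG box, bound by SRF; the Egr site GCGTGGGCG; and the cyclic AMP response element TGACGTCA.
Nab1, chr1:52500399-52500698, minus strand: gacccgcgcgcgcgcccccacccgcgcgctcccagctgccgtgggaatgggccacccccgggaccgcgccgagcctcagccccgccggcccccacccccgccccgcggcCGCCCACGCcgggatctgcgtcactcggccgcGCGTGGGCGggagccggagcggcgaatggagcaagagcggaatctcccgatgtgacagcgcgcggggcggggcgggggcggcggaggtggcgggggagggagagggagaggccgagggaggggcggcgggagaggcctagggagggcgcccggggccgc
Egr2, chr10:67537619-67537918, plus strand: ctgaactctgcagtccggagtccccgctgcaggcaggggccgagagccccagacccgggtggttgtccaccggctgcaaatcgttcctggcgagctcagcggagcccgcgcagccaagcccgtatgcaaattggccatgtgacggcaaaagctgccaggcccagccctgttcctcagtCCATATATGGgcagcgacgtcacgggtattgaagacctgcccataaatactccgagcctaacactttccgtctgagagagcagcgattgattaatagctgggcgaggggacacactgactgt
Btg2, chr1:134079106-134079405, minus strand: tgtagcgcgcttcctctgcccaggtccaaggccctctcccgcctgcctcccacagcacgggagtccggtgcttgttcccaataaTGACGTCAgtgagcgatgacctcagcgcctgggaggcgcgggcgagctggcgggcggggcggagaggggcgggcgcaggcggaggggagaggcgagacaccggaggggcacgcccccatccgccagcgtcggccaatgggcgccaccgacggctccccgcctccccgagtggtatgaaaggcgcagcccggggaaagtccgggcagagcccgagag
Nab2, chr10:127666654-127666953, minus strand: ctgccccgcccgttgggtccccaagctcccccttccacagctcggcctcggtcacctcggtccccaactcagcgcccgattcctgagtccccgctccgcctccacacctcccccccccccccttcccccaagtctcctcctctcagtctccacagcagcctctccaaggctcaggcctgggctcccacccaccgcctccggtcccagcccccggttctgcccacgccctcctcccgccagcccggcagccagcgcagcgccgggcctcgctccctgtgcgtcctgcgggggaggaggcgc
The Nab1 window holds 2 Egr sites, whose first bases lie 141 and 109 bases before the start of its window's transcript, the farther one read on the opposite strand and so printed as CGCCCACGC. Both sites lie inside the GENCODE gene, whose 5′ end is 231 bases before that start. An Egr site occurs in 0.612% of all 32851 promoter windows of the same length. The Egr2 window printed holds a CArG box 72 bases before its internal start. Of the 5 windows listed for Egr2 4 hold a CArG box, but 3 of these overlap and share the same one, so there are 2 distinct boxes, and the window at the 5′ end of the gene holds none. A CArG box occurs in 1.63% of all windows. The Btg2 window holds a cyclic AMP response element 166 bases before the start, a motif present in 1.79% of windows. No match to these letters stood in the windows of Nab2, Ier3 and Ier5. A match is a description of the sequence and not a measurement of binding.

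Expression of the 9 genes did not move as a block. In Sms-OE 3 rose (Egr1, Egr3 and Nab1), 1 fell (Egr2) and 5 did not pass the test (Nab2, Ier2, Ier3, Ier5 and Btg2), at an adjusted p under 0.05 by edgeR's quasi-likelihood test with Benjamini-Hochberg adjustment over all genes tested. Changes were common in this comparison: 26.9% of all genes passed, 12.5% as higher and 14.3% as lower in Sms-OE. The median log2 fold change of the 9 genes was 0.11, beside 0.00 over all genes tested. The split over all genes depended on scaling: 2293 were higher and 2615 lower as reported, while scaling by totals without TMM factors gave 2521 higher and 1788 lower. The 9 genes gave 3 higher and 1 lower under both.

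**Figure D1:**
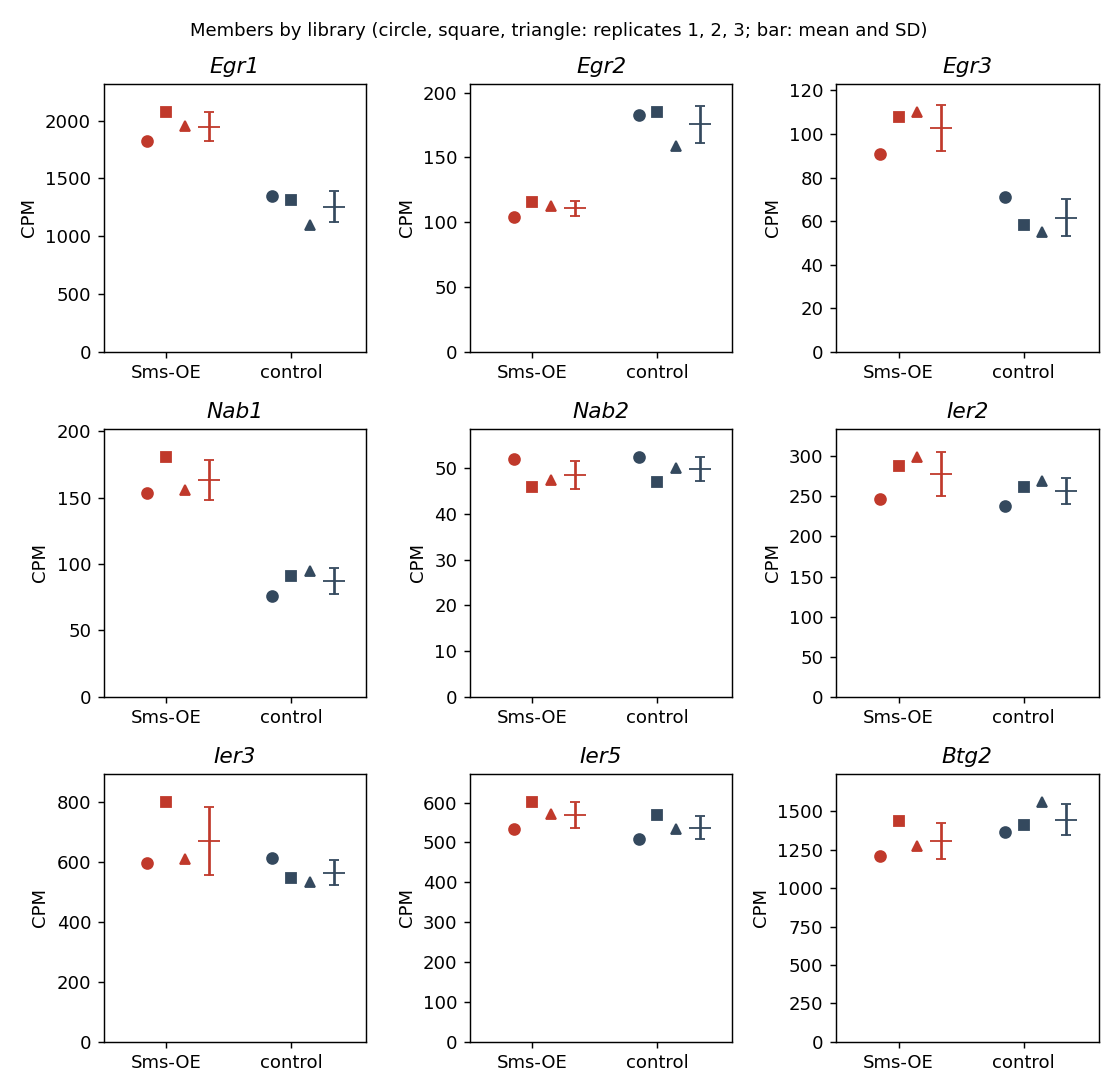
Level of each gene, in CPM (scaled estimated counts, linear axes that start at 0), in the 3 Sms-OE libraries (red) and the 3 control libraries (dark), with the mean and SD beside the points. The points of the groups do not overlap for Egr1, Egr2, Egr3 and Nab1, and they overlap for the other 5 genes.

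Egr1 (ENSMUSG00000038418, chr18:34859823-34864984 in GRCm38, plus strand) is the most studied of the family and is induced by growth factors, stress and inflammatory signals. It stood at 1822, 2071 and 1951 CPM in the Sms-OE libraries, against 1349, 1314 and 1101 CPM in the control libraries. CPM are estimated counts scaled to 1000000 counts per library, with TMM factors. Every Sms-OE value lay above every control value, as for 20.8% of all genes tested. The mean was 1948 ± 125 CPM in Sms-OE and 1255 ± 135 CPM in the controls (SD, n = 3 each), a log2 fold change of 0.63 ± 0.11 (SE) or 1.55-fold, with an adjusted p of 0.00339 by edgeR. Across all genes tested, 27.8% changed by a larger log2 fold change in either direction.

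Egr3 (ENSMUSG00000033730, chr14:70077203-70082614, plus strand), known from studies of lymphocytes and neurons as a factor induced downstream of receptor signalling, moved the same way at a lower level. Its values were 90.8, 108 and 109.9 CPM in Sms-OE, against 71.1, 58.4 and 55.2 CPM in the controls. The groups did not overlap, and the lowest Sms-OE value was that of replicate 1. The log2 fold change was 0.74 ± 0.12 (SE), 1.67-fold, with an adjusted p of 0.00185 by edgeR.

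Egr2 (ENSMUSG00000037868, chr10:67535475-67542188, plus strand), also called Krox20, which is required for myelination and in mouse macrophages is induced by interleukin 4, moved the other way. It stood at 104, 115 and 112 CPM in Sms-OE, against 183, 185 and 159 CPM in the controls. Every Sms-OE value lay below every control value, as for 23.3% of all genes tested. The mean was 111 ± 5.7 CPM in Sms-OE and 176 ± 14 CPM in the controls (SD, n = 3 each). Its log2 fold change was -0.67 ± 0.091 (SE), 1.59-fold lower, with an adjusted p of 0.000994 by edgeR. Egr4, the remaining gene of the family, had 0 to 11 estimated counts per library and was not tested.

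Ratios of counts within a library do not depend on how libraries are scaled. There were 17.5, 18.0 and 17.4 Egr1 counts for each Egr2 count in Sms-OE, against 7.38, 7.12 and 6.92 in the controls. The ratio was thus nearly constant within each group and 2.47-fold higher in Sms-OE (log2 difference 1.30, with SDs of 0.026 in Sms-OE and 0.047 in the controls). The ratio of Egr3 to Egr2 was 0.871, 0.936 and 0.978 in Sms-OE, against 0.389, 0.316 and 0.347 in the controls, 2.65-fold higher. For the pair that rose, the ratio of Egr1 to Egr3 was 20.1, 19.2 and 17.8 in Sms-OE, against 18.98, 22.5 and 20.0 in the controls, and the groups overlapped (two-sided exact permutation test, p = 0.5, adjusted p = 0.556). With 3 against 3 the exact permutation test cannot give a p below 0.1, the value for both ratios to Egr2, and 0.167 after adjustment over the 10 ratios compared. For these ratios that outcome was fixed in advance, because Egr1 and Egr3 were higher and Egr2 lower in every Sms-OE library. Their p is therefore no further support for the changes of the single genes.

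**Figure D2:**
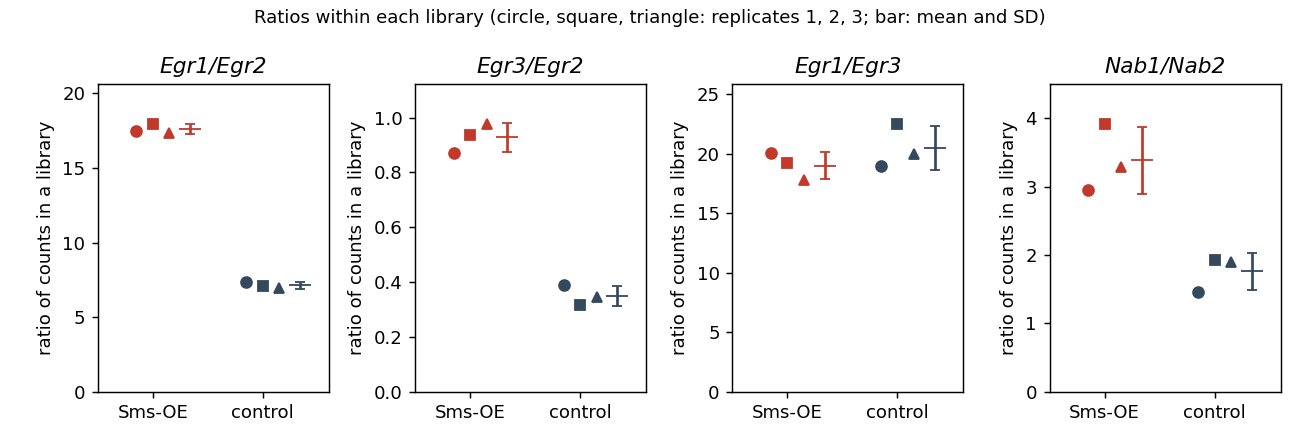
Ratio of the estimated counts of a gene pair within each library (linear axes that start at 0), for 3 Sms-OE libraries (red) and 3 control libraries (dark), with the mean and SD beside the points. Egr1/Egr2 and Egr3/Egr2 are higher in every Sms-OE library, Egr1/Egr3 overlaps between the groups, and Nab1/Nab2 is higher in every Sms-OE library.

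The co-repressors differed from each other. Nab1 (ENSMUSG00000002881, chr1:52457294-52500679, minus strand) stood at 153, 180.5 and 156 CPM in Sms-OE, against 76.2, 90.9 and 94.7 CPM in the controls, with no overlap. Its log2 fold change of 0.90 ± 0.11 (SE), 1.87-fold, was the largest among the 9 genes in size, with an adjusted p of 0.000514 by edgeR, and 15.6% of all genes tested changed by more. The window with the 2 Egr sites printed above is that of this gene, and binding of Egr proteins to it was not measured.

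Nab2 (ENSMUSG00000025402, chr10:127660918-127668568, minus strand), itself known as an Egr target that closes a feedback loop, stood at 51.9, 46.0 and 47.5 CPM in Sms-OE, against 52.4, 47.0 and 50.1 CPM in the controls. The groups overlapped, and the log2 fold change of -0.04 ± 0.091 (SE) had a 95% interval of -0.24 to 0.16, so a change as large as that of Egr1, Egr3 or Nab1 lay outside it. In GRCm38 the gene Nemp1 on the other strand overlaps Nab2 over 1668 bases, the antisense gene Gm16229 over 1646 bases and Stat6 over 40 bases. The library kit marked strand, but the strand setting used for counting is not given, so reads of the overlap could be counted for either gene. Nemp1 had 624 to 1068 estimated counts per library and Gm16229 had 6 to 50, fewer than the lowest Nab2 count of 2292. Stat6 had 16134 to 18832, more than Nab2. How many reads of the overlaps were counted for Nab2 was not tested. The other 8 genes overlap no annotated gene.

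Counts of Nab1 for each Nab2 count were 2.95, 3.92 and 3.29 in Sms-OE, against 1.45, 1.93 and 1.89 in the controls. All Sms-OE ratios exceeded all control ratios, with a log2 difference of 0.95 (SDs of 0.21 in Sms-OE and 0.23 in the controls) and an exact permutation p of 0.1, or 0.167 adjusted. The ratio of Egr1 to Nab1, both of which rose, was 11.9, 11.5 and 12.5 in Sms-OE, against 17.7, 14.5 and 11.6 in the controls. These ratios overlapped, and the control libraries spread more widely (SD of log2 0.063 in Sms-OE and 0.30 in the controls; p = 0.3 by the same exact test, adjusted p = 0.429).

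The 3 Ier genes and Btg2 did not pass the test. Ier2 (ENSMUSG00000053560, chr8:84661331-84662852, minus strand), a nuclear protein linked to transcription, stood at 246, 287 and 299 CPM in Sms-OE, against 238, 262 and 269 CPM in the controls. Ier5 (ENSMUSG00000056708, chr1:155096361-155099636, minus strand), which brings the phosphatase PP2A to its substrates, HSF1 among them, stood at 535, 601 and 572 CPM in Sms-OE, against 509.7, 568 and 532 CPM in the controls. Both overlapped between the groups. The 95% intervals of their log2 fold changes were -0.11 to 0.34 for Ier2 and -0.12 to 0.29 for Ier5.

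Ier3 (ENSMUSG00000003541, chr17:35821684-35822923, plus strand), also called IEX-1, a substrate of ERK that modulates cell survival, was uneven among the Sms-OE replicates. It had 597, 799.9 and 611 CPM in Sms-OE, against 613, 547 and 535 CPM in the controls. The high value of Sms-OE replicate 2 stood apart from the other 5 libraries, which lay between 535 and 613 CPM. The log2 fold change of 0.24 ± 0.13 (SE; 95% interval -0.04 to 0.53) did not pass (adjusted p = 0.190 by edgeR), and without Sms-OE replicate 2 it was 0.09. With offsets for transcript length and GC content Ier3 was called higher (log2 0.53 ± 0.12, adjusted p = 0.0163), the single call among these 5 genes in any of the 19 alternatives.

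Btg2 (ENSMUSG00000020423, chr1:134075170-134079120, minus strand), a target of p53 as well as of growth signals, stood at 1207, 1439 and 1276 CPM in Sms-OE, against 1363, 1413 and 1559 CPM in the controls. The ranges overlapped, with a log2 fold change of -0.14 ± 0.11 (SE; 95% interval -0.39 to 0.10). The ratio of Egr1 to Btg2 was 1.51, 1.44 and 1.53 in Sms-OE, against 0.990, 0.930 and 0.706 in the controls. Egr1 counts thus outnumbered Btg2 counts in each Sms-OE library and in no control library (exact permutation p = 0.1, adjusted p = 0.167). These counts are not corrected for transcript length, and the longest transcript is 4484 bases for Egr1 and 2743 bases for Btg2. Divided by that length, Btg2 was the higher of the pair in every library of both groups.

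**Figure D3:**
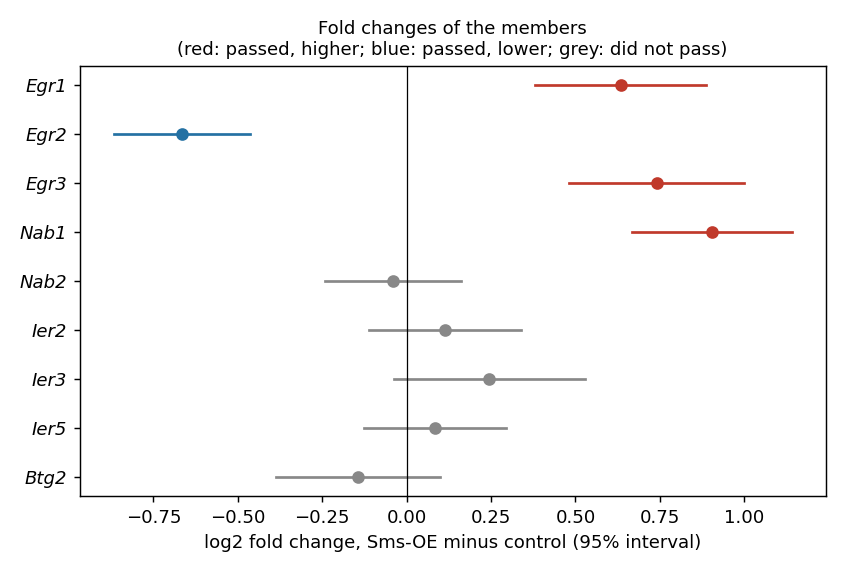
Log2 fold change of each gene, Sms-OE minus control, as points with 95% intervals from edgeR's quasi-likelihood fit to 3 libraries per group. The intervals of Egr1, Egr3 and Nab1 lie above 0, that of Egr2 lies below 0, and those of the other 5 genes include 0.

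To compare levels between genes, scaled CPM were divided by the length of the longest GENCODE M21 transcript in kilobases. On this scale Ier3 was the most abundant in Sms-OE at 592 ± 100.3 CPM per kb, followed by Btg2 at 477 ± 44 and Egr1 at 434 ± 28 (mean ± SD, n = 3). In the controls Btg2 led at 527 ± 37, followed by Ier3 at 499 ± 37 and Egr1 at 279.8 ± 30.04 CPM per kb. The libraries of Btg2 and Egr1 overlapped in Sms-OE, although Btg2 exceeded Egr1 within every library, and those of Btg2 and Ier3 overlapped in the controls. In Sms-OE the lowest Ier3 library (528 CPM per kb) lay just above the highest Btg2 library (525), a gap smaller than the SD of either gene. Ier2 and Ier5, whose libraries overlapped in both groups, came next, at 182 ± 18 and 174 ± 10.1 CPM per kb in Sms-OE and 168 ± 11 and 164 ± 9.0 in the controls.

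The lower levels changed order. In Sms-OE, Nab1 at 42.1 ± 3.9 CPM per kb stood beside Egr2 at 37.3 ± 1.9, followed by Egr3 at 26.1 ± 2.7 and Nab2 at 18.8 ± 1.2. In the controls, Egr2 at 59.2 ± 4.8 CPM per kb stood apart from Nab1 at 22.5 ± 2.5, Nab2 at 19.3 ± 1.1 and Egr3 at 15.6 ± 2.1, and the libraries of Nab1 and Nab2 overlapped. Among the genes tested, by this measure, the lowest, Nab2, lay at the percentile 82.4 and the highest, Ier3, at 99.3. Counts ran from 2292 to 103147 per gene and library, so that counting error alone was at most 2.09%, below the spread between replicates. Sms-OE replicate 1 had the lowest CPM of its group for 8 of the 9 genes, with Nab2 as the exception.

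Each of the 4 calls held when any 1 of the 6 libraries was left out. The log2 fold change then ranged over 0.54 to 0.68 for Egr1, -0.74 to -0.63 for Egr2, 0.66 to 0.85 for Egr3 and 0.81 to 0.95 for Nab1. The calls also held in the DESeq2 Wald test, in limma-voom and with every scaling tried.

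**Figure D4:**
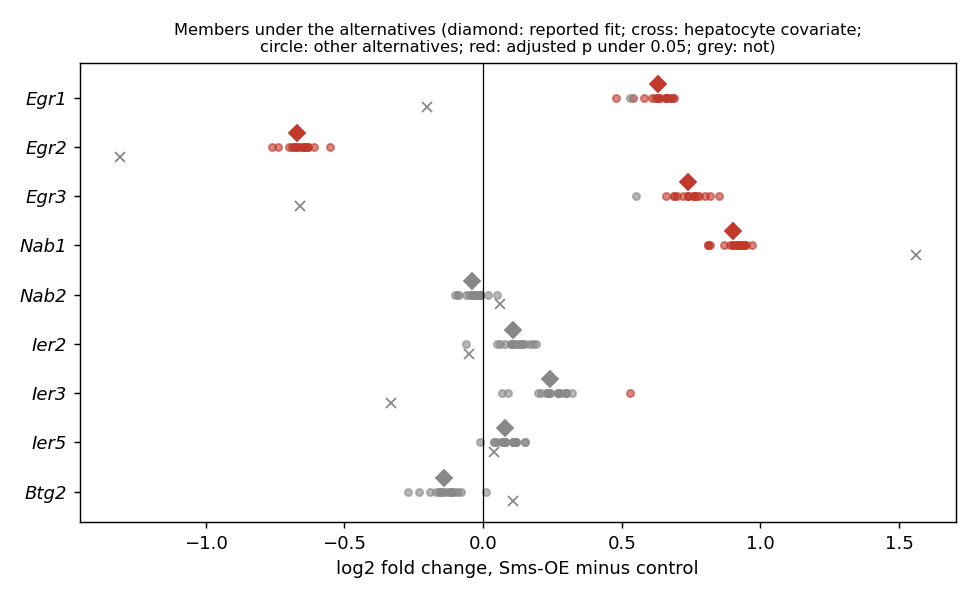
Log2 fold change of each gene, Sms-OE minus control, in the reported fit (diamond), with the hepatocyte marker covariate (cross) and in the other alternatives (circles), red where the adjusted p was under 0.05. Nab1 is red in every fit but the covariate one, where its log2 fold change is 1.56, and Egr1 and Egr3 are also grey in the fit without both haemoglobin-rich libraries.

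Other features of the libraries differed between the groups, and their part in the changes was not tested except where a value is given. Mitochondrial genes made up 2.15% to 3.12% of counts in Sms-OE and 4.99% to 7.13% in the controls, and the same 4 of the 9 genes were called when mitochondrial and haemoglobin genes were removed before scaling. Haemoglobin genes made up 0.0225% of counts in Sms-OE replicate 1 and 0.485% and 0.512% in replicates 2 and 3, against 0.00441% to 0.0172% in the controls. Without these haemoglobin-rich libraries, Sms-OE replicates 2 and 3, an alternative chosen after seeing the data that leaves a lone Sms-OE library assumed to vary like the controls, Nab1 and Egr2 still passed, while Egr1 (log2 0.53 ± 0.15, adjusted p = 0.0723) and Egr3 (0.55 ± 0.15, adjusted p = 0.0693) did not. Summed hepatocyte markers were 230 to 354 CPM in Sms-OE, against 586 to 717 CPM in the controls (10 of 12 lower, none at 0 in every library), and hepatoma markers 51.2 to 72.5 CPM in Sms-OE, against 70.2 to 90.8 CPM in the controls (2 of 4 tested lower, with Igf2 and Dlk1 at 0). With the mean log2 CPM of hepatocyte markers as a covariate, edgeR called none of the 9 genes and none of all genes, although 673 genes had an unadjusted p under 0.05, and the log2 fold changes of Egr1 (-0.20 ± 0.54) and Egr3 (-0.66 ± 0.44) were negative. That covariate does not overlap between the groups, at 0.644 to 1.23 in Sms-OE and 3.22 to 3.86 in the controls, so its part and that of the group cannot be told apart.

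Markers of the sorted cell type were present, with summed macrophage markers at 6100 to 7790 CPM in Sms-OE and 6360 to 6870 CPM in the controls (1 of 11 higher, 5 lower). Beside this and the following marker counts, 12.5% of all genes tested were higher and 14.3% lower. Kupffer cell markers were 362 to 453 CPM in Sms-OE, against 144 to 149 CPM in the controls, with 7 of 7 higher. In bulk RNA, fewer cells of a type and less RNA per cell cannot be told apart, and the part of these cells in the changes of the Egr and Nab genes was not tested. Neutrophil markers (4600 to 6190 CPM in Sms-OE, against 5640 to 7470 CPM in the controls; none of 10 called) and B cell markers (118 to 145 CPM in Sms-OE, against 140 to 153 CPM in the controls; none of 6) gave no calls. Of the monocyte markers 1 was higher and 2 lower of 7 (1770 to 2110 CPM in Sms-OE, against 2050 to 2290 CPM in the controls), and of the dendritic cell markers 1 was higher and 3 lower of 7 (48.0 to 59.5 CPM in Sms-OE, against 65.2 to 88.8 CPM in the controls). For T and NK cells 1 of 10 markers was higher (391 to 583 CPM in Sms-OE, against 346 to 490 CPM in the controls), and for fibroblasts and stellate cells 2 of 7 (113 to 157 CPM in Sms-OE, against 75.4 to 98.9 CPM in the controls). Endothelial markers gave 1 higher and 4 lower of 8 (127 to 158 CPM in Sms-OE, against 144 to 173 CPM in the controls). Erythroid markers gave no call among 5 tested (228 to 5210 CPM in Sms-OE, against 44.5 to 176 CPM in the controls). Sms itself stood at 33.1 ± 0.15 CPM in Sms-OE and 26.9 ± 1.3 CPM in the controls (SD, n = 3 each), a log2 fold change of 0.30 ± 0.094 (SE) with an adjusted p of 0.0382 by edgeR.

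Of 33 other immediate early genes tested, 20 were higher and none was lower in Sms-OE, with a median log2 fold change of 0.40. Over all genes tested 12.5% were higher and 14.3% lower, and these shares stand beside each list count below. Nr4a3, an orphan nuclear receptor, had a log2 fold change of 1.55 ± 0.11 (SE) and 510.03 CPM in Sms-OE, against 174 CPM in the controls. The others among the 4 with the smallest p were the AP-1 subunit Fosb at 0.97 ± 0.11, the transcription factor Klf4 at 0.87 ± 0.12 and the kinase Sik1 at 0.80 ± 0.097. Fos (0.38 ± 0.11), Jun (0.44 ± 0.098) and Junb (0.66 ± 0.11), named after their values were seen, also rose. Not all did: Atf3 at 0.16 ± 0.087, Zfp36 at -0.07 ± 0.11, Dusp1 at -0.08 ± 0.10 and Myc at -0.30 ± 0.12, named for the same reason, did not pass. The higher genes numbered 12 without control replicate 2 and 13 without control replicate 3, when 1 was lower, and 8 without both haemoglobin-rich Sms-OE libraries.

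**Figure D5:**
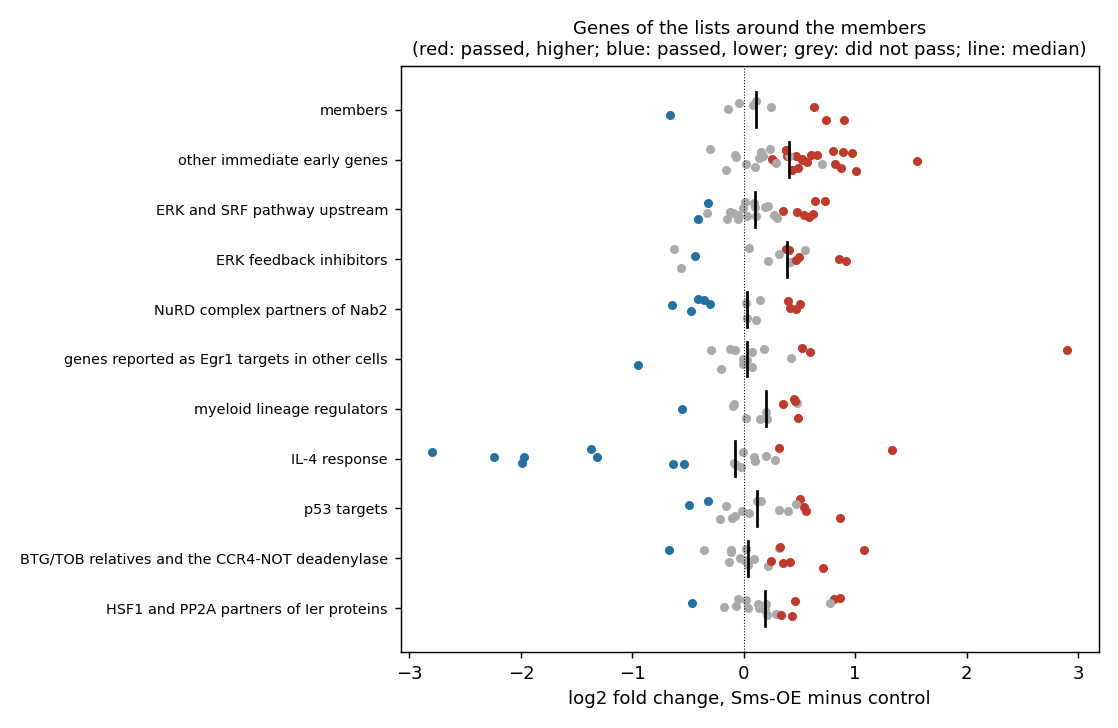
Log2 fold changes, Sms-OE minus control, of the 9 genes (top) and of the lists of related genes, 1 point per gene tested (red: higher; blue: lower; grey: did not pass), with the median of each list as a line. Most points of the other immediate early genes lie to the right of 0, while the NuRD partners of Nab2 and the ERK and SRF pathway hold genes called in both directions.

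Upstream of these genes, the ERK and SRF pathway was mixed. Of 25 genes tested, 7 were higher and 2 lower, with a median log2 fold change of 0.10. The ETS partner of SRF named Elk4 (0.73 ± 0.087, SE), the Ras exchange factor Sos2 (0.64 ± 0.086), the kinase Braf (0.59 ± 0.11) and the ERK-activated kinase Rps6ka4 (0.62 ± 0.12) rose. The 2 that fell were the GTPases Hras and Nras, named after their values were seen. None was lower with library size as the scaling or without control replicate 2, control replicate 3 or Sms-OE replicate 3, and 3 were higher and none lower without both haemoglobin-rich libraries.

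Inhibitors of ERK signalling, only some of which are themselves induced by ERK, were higher in 6 and lower in 1 of 14, with a median of 0.39. The phosphatases Dusp4 (log2 0.85 ± 0.11) and Dusp6 (0.50 ± 0.097) and the Ras GTPase activator Rasa1 (0.47 ± 0.10) rose, and Spred1 fell (-0.43 ± 0.11). None was lower with library size as the scaling or without control replicate 1 or 2, and 2 were lower without Sms-OE replicate 1. The number of higher genes was 3 when any 1 control library was left out, 4 without Sms-OE replicate 3, and 2 without both haemoglobin-rich libraries.

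Partners of the Egr, Nab and Btg proteins moved in both directions. In the NuRD complex, a chromatin remodeller to which Nab2 binds through Chd4, 4 of 13 subunits tested were higher and 5 lower (median 0.03). Mta3 (0.51 ± 0.096) and, named after their values were seen, Chd3, Chd4 and Gatad2b rose. Hdac2 (-0.64 ± 0.10), Mbd3 (-0.47 ± 0.092) and Rbbp7 (-0.41 ± 0.091) fell, with Rbbp4 and Hdac1, named on the same ground. Without control replicate 2 there were 2 higher and 4 lower, with length and GC offsets 1 and 3, with library size as the scaling 4 and 3, and without both haemoglobin-rich libraries 2 and 0. Among relatives of Btg2, the CCR4-NOT deadenylase and associated genes, 6 of 19 were higher and 1 lower (median 0.04). The antiproliferative relatives Tob1 (1.08 ± 0.14) and Tob2 (0.71 ± 0.13) rose. So did Pan3 (0.41 ± 0.084), which belongs to a deadenylase other than CCR4-NOT. The methyltransferase Prmt1, a partner of Btg proteins, fell (-0.67 ± 0.11). The higher genes of that list numbered 3 without any 1 control library, without Sms-OE replicate 2 or 3, or with no low-count filter, and 2 without both haemoglobin-rich libraries.

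For HSF1, its targets and PP2A subunits, the setting of Ier5 and Ier3, 5 of 18 genes were higher and 1 lower (median 0.20). The heat shock genes Hspa1a (0.86 ± 0.12) and Hspa1b (0.81 ± 0.11), near-identical copies whose reads may be split between them, rose, as did the co-chaperone Dnajb1 (0.43 ± 0.080), and the constitutive chaperone Hspa8 fell (-0.46 ± 0.11). There were 3 higher without control replicate 1 or 2, and 3 without both haemoglobin-rich libraries. Of p53 targets, 4 of 17 were higher and 2 lower (median 0.12), with Sesn2 (0.51 ± 0.10), Mdm2 (0.54 ± 0.11) and Gadd45a (0.87 ± 0.19) higher and Plk2 (-0.49 ± 0.098) lower. For the p53 targets 1 was lower without control replicate 1 or 2 or Sms-OE replicate 3, and none was called without both haemoglobin-rich libraries.

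Of genes reported as Egr1 targets in other cells, 3 of 15 were higher and 1 lower, with a median of 0.03. The share called was near the 26.9% of all genes tested. Ptges, which makes prostaglandin E2 (2.90 ± 0.29), the urokinase receptor Plaur (0.60 ± 0.15) and tissue factor F3 (0.53 ± 0.16) rose, and urokinase, Plau, fell (-0.95 ± 0.11). The higher genes numbered 1 without control replicate 1 or 2, 2 without control replicate 3, Sms-OE replicate 2 (when 2 were lower) or Sms-OE replicate 3, and 1 without both haemoglobin-rich libraries. Myeloid lineage regulators gave 4 higher and 1 lower of 12 (median 0.20), with Zeb2 (0.49 ± 0.092), Runx1 (0.46 ± 0.090) and Maf (0.45 ± 0.11) higher and Irf8 (-0.55 ± 0.089) lower. There were 2 higher without control replicate 2 or 3 and 1 without both haemoglobin-rich libraries. In the interleukin 4 response, to which Egr2 belongs in mouse macrophages, 2 of 18 genes were higher and 8 lower (median -0.08). The list did not fall as a whole: its summed level was 8380 to 9850 CPM in Sms-OE, against 7450 to 8670 CPM in the controls, and the ranges overlapped. The 4 with the smallest p, Mgl2 (-2.24 ± 0.19), Ccl24 (-1.99 ± 0.20), Ccl22 (-1.97 ± 0.15) and Clec10a (-1.31 ± 0.12), fell. The highest log2 fold change of the list was 1.33, and a link to the fall of Egr2 was not tested. The list gave 1 higher and 6 lower without control replicate 1, without Sms-OE replicate 3 or without both haemoglobin-rich libraries, and 1 higher without control replicate 2.

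Among genes outside the 9 with at least 5 CPM, those most like each Egr gene over the 6 libraries were found by the root mean square difference of log2 CPM, each gene centred on its own mean. Nearest to Egr1 were the transcription factor Mef2d at 0.045, the tubulin deglutamylase Agbl5 at 0.046 and the cyclic AMP phosphodiesterase Pde7b at 0.047. For Egr2 they were Coq7, an enzyme of ubiquinone synthesis, at 0.061, Cnbd2 at 0.067 and the adaptor Scimp at 0.067. Egr3 had Gm43912 at 0.044, Gm10382 at 0.074 and the amino acid transporter Slc16a10 at 0.075. With 6 libraries and many changed genes such nearness is a description of these samples.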

How the data were processed

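Analysis began from the deposited estimated counts, whole numbers for each gene in 6 libraries of F4/80+ cells. RNA had been selected on oligo(dT) beads and strand marked with dUTP and UDG, per the labels' protocols. The tools named, per the submitters' processing notes, are HISAT2 2.2.1, StringTie 2.1.6, DESeq2, cutadapt 1.9 and FastQC 0.11.9. For the build, annotation, strand setting and way of counting, the entry is: not given in the sources used here. Library totals ran from 49833764 to 58154006, and 1 CPM is at least 49.8 counts. Symbols were matched by Ensembl identifier to GENCODE M21 (GRCm38) for 55141 of 55401 rows, and coordinates are from GENCODE M21. Promoters are RefSeq windows on GRCm38.p6.

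Groups came from the sample titles. Within a group at most 3.65% of genes with counts had identical values in 2 libraries, and all 6 were used as separate samples. Labels name no batch. The test was edgeR 4.0.16 in R 4.3.3: genes kept by filterByExpr, TMM scaling, then glmQLFit (robust) and glmQLFTest, p-values adjusted by Benjamini and Hochberg's method over 18277 genes, threshold 0.05. Log2 fold changes use a prior count of 0.125, and standard errors came from the F statistic. The procedure was tested on simulated data. For ratios within libraries, the exact permutation test (two-sided) enumerated all 20 assignments.

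The 9 genes and the lists were chosen with earlier results of these data known. Named genes of a list were up to 4 past the threshold by smallest p. Alternatives were other scalings, low-count filters, DESeq2 1.42.0, limma 3.58.1 voom, no robust step, a replicate block, a hepatocyte covariate, length and GC offsets, removal of mitochondrial and haemoglobin rows, each library left out, and other thresholds. The value of 1 gene of the housekeeping list is not reported here.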

Additional observations from a re-analysis of the deposited data

How the results depend on the processing

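Under 19 alternative fits, Egr2 and Nab1 passed in 18 and Egr1 and Egr3 in 17, and none of Nab2, Ier2, Ier5 and Btg2 passed. The exceptions were the hepatocyte covariate and, for Egr1 and Egr3, the removal of both haemoglobin-rich libraries. With the covariate edgeR called 0 genes, among them 0 higher and 0 lower of the 9, with 673 genes at an unadjusted p under 0.05; no other tool was run with it. Log2 fold changes then turned sign for Egr1 (-0.20), Egr3 (-0.66), Nab2 (0.06), Ier2 (-0.05), Ier3 (-0.33) and Btg2 (0.11), with SEs of 0.44 to 0.69. Without both haemoglobin-rich libraries 1384 genes passed, 1 of the 9 as higher (Nab1) and 1 as lower, and Nab2 (0.05), Ier2 (-0.06) and Ier5 (-0.01) turned sign. With library size alone Nab2 was 0.02, and with length and GC offsets, which moved the median of all genes by 0.11, Btg2 was 0.01. At an adjusted p of 0.01, 2296 genes passed, and leaving out each library gave 3050 to 4488 (lowest without control replicate 2), against 4908. The labels do not say whether replicate numbers pair the samples. Same-numbered libraries had correlations of -0.01 to 0.06, which with 3 libraries per group cannot exclude pairing. With the replicate block 4532 genes passed, and the same 4 of the 9. The cause of these differences was not tested. Counting error of the 9 genes was small, so the number of libraries limits precision.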

Other observations

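Some genes commonly used as references were not level in this comparison. Of 10 housekeeping genes 3 were lower in Sms-OE, beside 14.3% of all genes tested, with a median log2 fold change of -0.22 over the list. Actb, the gene of beta-actin, stood at 3331 ± 89 CPM in Sms-OE and 5252 ± 313 CPM in the controls (SD, n = 3 each), a log2 fold change of -0.66 ± 0.10 (SE). Sdha, a subunit of respiratory complex II, gave -0.56 ± 0.081, and Hprt, of purine salvage, gave -0.48 ± 0.082. The number of lower genes was 3 under every scaling tried.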
